A study of Mus musculus with 4 samples.

Results

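The 10 genes described here encode negative feedback regulators of mitogen-activated protein kinase (MAPK) signalling: 6 dual-specificity phosphatases (Dusp1, Dusp2, Dusp4, Dusp5, Dusp6 and Dusp10), 2 Sprouty proteins (Spry1 and Spry2) and 2 Sprouty-related Spred proteins (Spred1 and Spred2). They were chosen by gene symbol and by no rule on their values, though with earlier results of these data known. All 10 were found among the 19088 genes of the deposited table. RNA was sequenced from sorted ILC2s (group 2 innate lymphoid cells), lymphocytes that reside in tissues and secrete type 2 cytokines, taken from the epididymal adipose depot of male C57BL/6 mice aged 8 weeks. The WT group (genotype R5/+) and the KO group (genotype R5/+Stk11f/f, with both Stk11 alleles floxed) had 2 libraries each, from 2000 to 4000 cells per library. Both groups carry 1 copy of R5, a name used in ILC2 work for a knock-in at Il5 that carries a red reporter and Cre recombinase; the labels do not spell it out. A Cre driven from Il5 acts in cells that have switched on Il5, so deletion need not be complete in the cells sorted. The labels do not say whether the libraries came from separate animals or from pools, so the p-values given reflect no more than the spread among these 4 libraries, and that spread may be technical. Stk11, which encodes the kinase LKB1, had WT values of 43.1 and 39.1 FPKM and KO values of 31.9 and 16.6 FPKM, lower in both KO libraries without passing the test (adjusted p = 0.548, limma), and a value per gene does not show whether the floxed exons were lost. FPKM is the number of sequenced fragments assigned to a gene, per kilobase of transcript and scaled to the mapped fragments of the library.

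MAPKs are the last kinases of cascades that run from receptors through RAS, RAF and MEK to ERK, or through stress-responsive kinases to p38 and JNK. In ILC2s, receptors for IL-33 and other alarmins signal in part through p38 and ERK. The pathway limits itself: active MAPKs switch on transcription of DUSP genes, whose products strip phosphate from the MAPKs, and Sprouty and Spred proteins hold back the steps around RAS and RAF. Many of these transcripts are short-lived immediate-early RNAs, which also respond to the handling of tissue and cells.

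The data show a spread of levels that was far wider between the genes than between the groups. Spry2 and Dusp1 were the most abundant, together 78.6% and 78.2% of the summed FPKM of the 10 genes in WT and 77.6% and 77.5% in KO. Of the 9 members tested, 0 were called between KO and WT (limma, adjusted p under 0.05; 1 had an unadjusted p under 0.05), where 0.214% of all 9818 genes tested were called (0.163% higher and 0.0509% lower in KO). Spry1 had the lowest KO level relative to WT (6.70 ± 2.02 against 16.1 ± 4.59 FPKM, SD, n = 2 each) and Dusp2 the highest (17.2 ± 6.05 against 8.55 ± 1.31 FPKM), and in neither did the groups overlap. Dusp4, the member left out of the test, had a mean of 0.79 FPKM over the 4 libraries, under the minimum of 1 FPKM.

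Promoter sequence is shown first, because the family is known for rapid induction through short promoter elements. The set comprises the 4 members whose WT and KO libraries did not overlap in FPKM as deposited (Dusp2, Dusp6, Spry1 and Spry2), the most abundant member of each family (Dusp1, Spry2 and Spred1) and Dusp5, added after its sequence was seen. A promoter sequence was available for 9 of the 10 members (all but Dusp4). Each sequence below is the 250 bases before the RefSeq transcription start on GRCm38.p6, 5′ to 3′ on the gene's own strand. Capitals mark matches, on either strand, to a cyclic AMP response element (TGACGTCA) or its core (TGACG, which also lies within the full element). They also mark an AP-1 site (TGANTCA), an ETS site (CCGGAA, longer than the ETS core GGAA), an EGR site (GCGNGGGCG) or a CArG box, the element read by serum response factor.
Dusp1 promoter, chr17:26508473-26508722, minus strand: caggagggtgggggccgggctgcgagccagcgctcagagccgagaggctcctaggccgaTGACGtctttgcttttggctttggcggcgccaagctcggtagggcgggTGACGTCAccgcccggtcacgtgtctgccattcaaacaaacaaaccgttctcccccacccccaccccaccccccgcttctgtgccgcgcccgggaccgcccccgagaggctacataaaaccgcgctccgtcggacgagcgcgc
Dusp2 promoter, chr2:127335909-127336158, plus strand: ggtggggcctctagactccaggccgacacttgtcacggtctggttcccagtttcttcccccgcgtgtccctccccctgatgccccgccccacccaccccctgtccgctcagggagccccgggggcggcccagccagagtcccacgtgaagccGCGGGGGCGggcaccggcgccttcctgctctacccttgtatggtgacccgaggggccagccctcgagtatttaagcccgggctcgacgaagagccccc
Dusp5 promoter, chr19:53528895-53529144, plus strand: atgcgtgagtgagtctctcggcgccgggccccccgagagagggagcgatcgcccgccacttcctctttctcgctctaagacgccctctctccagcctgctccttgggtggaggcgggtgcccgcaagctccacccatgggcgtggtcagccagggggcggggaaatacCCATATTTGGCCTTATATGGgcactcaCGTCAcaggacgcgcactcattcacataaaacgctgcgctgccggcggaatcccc
Dusp6 promoter, chr10:99262981-99263230, plus strand: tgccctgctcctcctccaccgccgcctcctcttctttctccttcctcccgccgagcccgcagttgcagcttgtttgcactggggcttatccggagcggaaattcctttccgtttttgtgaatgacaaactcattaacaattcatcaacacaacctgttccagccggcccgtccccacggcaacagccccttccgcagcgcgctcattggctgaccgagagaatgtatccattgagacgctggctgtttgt
Spry1 promoter, chr3:37639697-37639946, plus strand: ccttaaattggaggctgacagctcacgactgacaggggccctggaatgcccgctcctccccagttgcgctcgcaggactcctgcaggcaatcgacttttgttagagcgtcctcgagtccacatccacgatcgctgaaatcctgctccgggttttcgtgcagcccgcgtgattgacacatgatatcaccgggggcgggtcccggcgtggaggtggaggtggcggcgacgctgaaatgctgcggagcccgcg
Spry2 promoter, chr14:105896820-105897069, minus strand: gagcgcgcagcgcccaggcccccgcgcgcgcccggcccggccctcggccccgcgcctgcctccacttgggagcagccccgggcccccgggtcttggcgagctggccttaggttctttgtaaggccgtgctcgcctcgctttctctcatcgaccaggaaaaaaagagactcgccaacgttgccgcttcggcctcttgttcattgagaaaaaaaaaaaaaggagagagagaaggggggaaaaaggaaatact
Spred1 promoter, chr2:117120821-117121070, plus strand: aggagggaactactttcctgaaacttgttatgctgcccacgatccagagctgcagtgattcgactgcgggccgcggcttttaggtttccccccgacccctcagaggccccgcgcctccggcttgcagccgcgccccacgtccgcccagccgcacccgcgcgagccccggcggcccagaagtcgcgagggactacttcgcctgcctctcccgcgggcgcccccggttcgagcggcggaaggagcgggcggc

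Dusp1 held a full cyclic AMP response element 143 to 136 bases before its start and a separate TGACG match at 191 to 187 bases. The full element was present in 1 of the 9 members and in 1.55% of 32841 promoters of the same length. Dusp5 held 2 adjacent CArG boxes, at 82 to 73 and 72 to 63 bases before its start, and a TGACG match at 55 to 51 bases on the opposite strand. CArG boxes were found in 1 of the 9 members and in 1.47% of all promoters. Dusp2 held an EGR site at 98 to 90 bases (1 of 9 members, 4.70% of all promoters). TGACG matches were found in 3 members (Dusp1, Dusp5 and Spred2) and in 17.8% of all promoters. AP-1 sites (6.75% of all promoters) and the ETS site CCGGAA (12.0%) were found in 0 of the 9, and the windows of Dusp6, Spry1, Spry2 and Spred1 therefore carry no capitals. The shorter ETS core GGAA was not counted, and it lies within the windows of Dusp6, Spry1, Spry2 and Spred1, among others. A TATA box (TATAAA, 12.4% of all promoters) was found in 0 members, and a CCAAT box (CCAAT, 33.9%) in 3, namely Dusp6, Dusp10 and Spry1; neither is marked. All 9 windows were richer in G and C than the median promoter (52.4%), from 56.0% in Spred2 to 70.8% in Spred1. A match is a run of letters and not evidence that a factor was bound.

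Dusp1 encodes a nuclear phosphatase that acts on p38, JNK and ERK, and lies on chromosome 17 from 26505591 to 26508472 on the minus strand. The WT libraries gave 391 and 334 FPKM, and the KO libraries 432 and 384 FPKM. These values put it at rank 367 of the 19088 genes by mean level, and the groups overlapped, since KO replicate 2 lay below WT replicate 1. The FPKM totals of both KO libraries were lower than those of both WT libraries, so values were also rescaled to 1 common total (TPM scaling). Dusp1 was then apart and higher in KO, at 390.4 and 307 in WT, compared with 453 and 401 in KO. The means were 362 ± 40.2 FPKM in WT and 408 ± 34.3 FPKM in KO. On the log2(FPKM + 1) scale used for every fold change here, which understates changes of low genes, the KO minus WT difference was 0.17 (SE 0.19; limma, adjusted p = 0.843), and 0.30 with TPM scaling. Its 95% interval ran from 0.831 to 1.53 as a ratio of FPKM + 1, so that a change of the size of 2-fold in either direction lay outside it.

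Dusp2 encodes a nuclear phosphatase induced when lymphocytes are activated, and lies on chromosome 2 from 127336159 to 127338377 on the plus strand. Its level was 9.47 and 7.62 FPKM in WT, compared with 21.5 and 12.9 FPKM in KO. Both KO libraries were higher than both WT libraries, and KO replicate 1 was the highest of the 4. The log2 fold change was 0.89 (SE 0.41; 95% interval -0.05 to 1.84), which did not pass (limma, adjusted p = 0.548). Without KO replicate 1 it was 0.55, and without KO replicate 2 it was 1.24. As a share of Dusp1 plus Dusp2 within each library, Dusp2 was 2.37% and 2.23% in WT and 4.73% and 3.25% in KO. A scaling factor common to both genes leaves this share as it is, and the groups did not overlap in it. Dusp2 is a small part of the sum, so this share is not separate from its own level. The groups did not overlap in level in 39.1% of all genes tested.

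Dusp5 encodes a nuclear phosphatase specific to ERK, and Dusp6 a cytoplasmic one that is also specific to ERK. Dusp5 (chromosome 19 from 53529145 to 53541809, plus strand) had 82.8 and 54.7 FPKM in WT, compared with 82.6 and 65.0 FPKM in KO. The groups overlapped, and the 2 libraries of each group were further apart than the group means of 68.7 ± 19.9 and 73.8 ± 12.4 FPKM. Its log2 fold change was 0.12 (SE 0.30; limma, adjusted p = 0.944), or 0.24 with TPM scaling, turning to -0.17 without WT replicate 2 and to -0.05 without KO replicate 1. Dusp6 (chromosome 10 from 99263231 to 99267489, plus strand) had WT values of 42.6 and 52.2 FPKM and KO values of 37.7 and 42.3 FPKM. Both KO libraries lay under both WT libraries, but KO replicate 2 by a margin smaller than the gap between the WT libraries. This separation ended with TPM scaling, where KO replicate 2 (44.1) exceeded WT replicate 1 (42.5), and with median-ratio scaling. The log2 fold change of Dusp6 was -0.23 (SE 0.29; limma, adjusted p = 0.860) and -0.11 with TPM scaling, with a range of -0.38 to -0.09 when each library was left out in turn. The ratio of the nuclear to the cytoplasmic ERK phosphatase, Dusp5 over Dusp6, was 1.94 and 1.05 in WT and 2.19 and 1.54 in KO, so the groups overlapped.

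Dusp10 encodes a phosphatase that prefers p38 and JNK, and lies on chromosome 1 from 184034381 to 184075636 on the plus strand. It was the third most abundant member, at 119.99 and 94.0 FPKM in WT, compared with 109.9 and 116.7 FPKM in KO. Both KO libraries lay between the WT libraries. The log2 fold change was 0.09 (SE 0.24; limma, adjusted p = 0.949), 0.22 with TPM scaling and -0.08 without WT replicate 2; its 95% interval ran from 0.725 to 1.57 as a ratio of FPKM + 1. Dusp4, a nuclear phosphatase of ERK, JNK and p38 (chromosome 8 from 34807610 to 34819894), had 2.09 and 0.02 FPKM in WT, compared with 1.03 and 0.00 FPKM in KO. At the depth estimated from these files, which is too rough to recover whole fragments, the 4 values correspond to about 99, 1, 52 and 0 fragments. The gap between the 2 libraries of a group was wider than the gap between the groups, and no fold is given.

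Spry2 encodes a Sprouty protein that restrains RAS and RAF activation downstream of growth factor and antigen receptors, and lies on chromosome 14 from 105891947 to 105896819 on the minus strand. It was the most abundant member, at rank 296 of all genes, with 615 and 493 FPKM in WT, compared with 479 and 463 FPKM in KO. Both KO libraries were lower than both WT libraries, with KO replicate 1 close under WT replicate 2. With TPM scaling both KO values (502 and 483) lay between the WT values (614 and 454), and the groups also overlapped with quantile normalization. The means were 554 ± 86.4 and 471 ± 11.5 FPKM, and the log2 fold change was -0.22 (SE 0.19; 95% interval -0.65 to 0.20), which did not pass (limma, adjusted p = 0.779) and was -0.10 with TPM scaling. The value was -0.07 when WT replicate 1 was left out and -0.38 when WT replicate 2 was left out.

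Spry1, the related gene on chromosome 3 from 37639947 to 37644599 on the plus strand, encodes a Sprouty protein also known as a brake on receptor signalling in T cells. It stood far lower than Spry2, at 12.9 and 19.3 FPKM in WT, compared with 8.13 and 5.27 FPKM in KO. All 4 values were separate by group, with KO replicate 2 the lowest and WT replicate 2 the highest. The log2 fold change was -1.15 (SE 0.43; 95% interval -2.13 to -0.17). This was the 1 member of 9 with an unadjusted p under 0.05 (0.0270), where 9.18% of all genes tested had one, and it did not pass after adjustment (limma, adjusted p = 0.460). With each library left out in turn the value lay between -1.43 and -0.87. As a share of Spry1 plus Spry2 within each library, Spry1 was 2.05% and 3.78% in WT and 1.67% and 1.13% in KO, again without overlap. Spry1 is a small part of that sum, so the share is not separate from its own level.

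Spred1 and Spred2 encode membrane-bound proteins that block RAF activation, and Spred1 brings neurofibromin, an off-switch of RAS, to the membrane. Spred1 (chromosome 2 from 117121071 to 117182279, plus strand) had WT values of 2.62 and 1.62 FPKM and KO values of 1.76 and 2.91 FPKM. Spred2 (chromosome 11 from 19924442 to 20024026, plus strand) had 1.38 and 0.47 FPKM in WT, compared with 1.24 and 1.38 FPKM in KO. Both genes were near the lower bound for testing, and in both the groups overlapped. The log2 fold changes were 0.09 (SE 0.57) for Spred1 and 0.30 (SE 0.66) for Spred2 (limma, adjusted p = 0.980 and 0.936). Their 95% intervals included ratios from 0.437 to 2.60 and from 0.436 to 3.49, as ratios of FPKM + 1, so a change of 2-fold in either direction on that scale was not excluded. In FPKM itself the ratio of the group means was 1.10 for Spred1 and 1.42 for Spred2. Without WT replicate 2 the values were -0.14 for Spred1 and -0.04 for Spred2, and for Spred1 -0.16 without KO replicate 2.

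**Figure D1:**
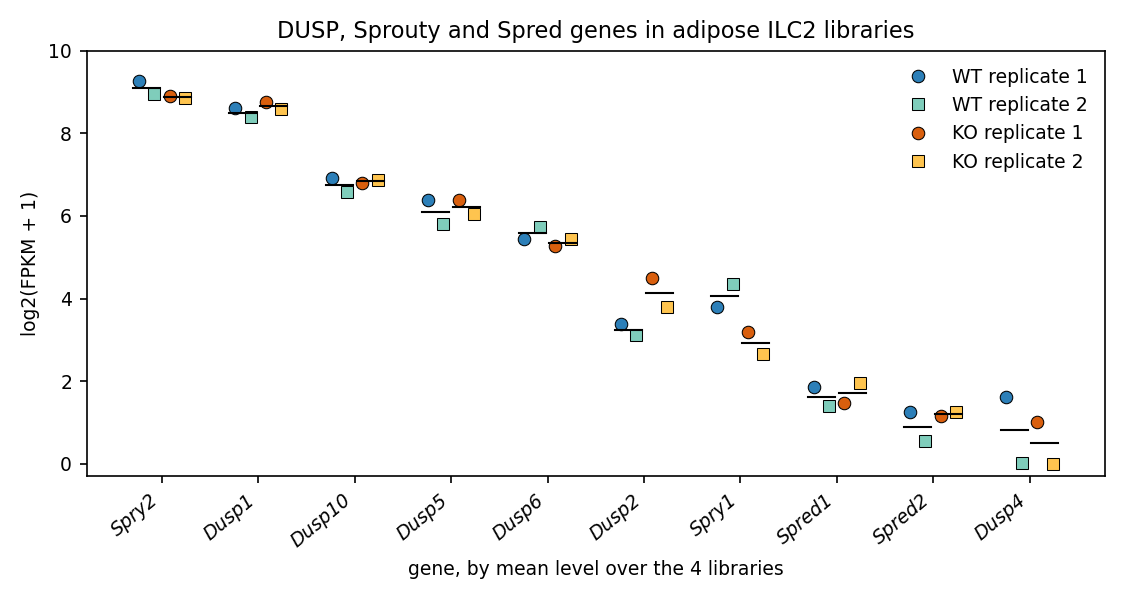
Level of each gene in each of the 4 libraries, as log2(FPKM + 1), with genes ordered by their mean over the libraries; short bars are the means of the 2 libraries of a group. Spry2 and Dusp1 stand at the top in every library, the groups are apart in Dusp2, Dusp6, Spry1 and Spry2 (in Spry2 and Dusp6 not with TPM scaling), and the 2 replicates of each group differ most visibly in Dusp4.

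By mean level over the 4 libraries, per transcript length, the order was Spry2 (512.6 FPKM), Dusp1 (385 FPKM), Dusp10 (110.2 FPKM), Dusp5 (71.3 FPKM), Dusp6 (43.7 FPKM), Dusp2 (12.9 FPKM), Spry1 (11.4 FPKM), Spred1 (2.23 FPKM), Spred2 (1.12 FPKM) and Dusp4 (0.79 FPKM). The highest mean was 653 times the lowest. Of the 9 pairs of neighbours in this order, 7 were apart, meaning that the lowest library of the higher gene exceeded the highest library of the lower gene. The exceptions were Dusp2 and Spry1, with Spry1 the higher in both WT libraries and Dusp2 the higher in both KO libraries, and Spred2 and Dusp4. The margin between Dusp5 and Dusp6 was narrow, 54.7 FPKM in the lowest library of Dusp5 against 52.2 FPKM in the highest of Dusp6. For the 5 most abundant members the highest library was 1.28 to 1.51 times the lowest, beside a median of 1.55 over the 1366 genes of the same range of mean level.

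The 5 most abundant members thus kept their order in all 4 libraries, but the proportion between the top 2 lay apart by group. Spry2 was 48.1% and 46.6% of the summed level of the 10 genes in WT and 40.8% and 42.3% in KO, while Dusp1 was 30.5% and 31.6% in WT and 36.8% and 35.1% in KO. The ratio of Dusp1 to Spry2 within a library was 0.636 and 0.678 in WT and 0.902 and 0.829 in KO, without overlap. This ratio was computed after the values were seen and was not tested. An exact permutation test of 2 against 2 libraries cannot go below p = 0.333. Among the other ratios of members taken, those of Dusp1, Dusp5 and Dusp10 to Dusp6 overlapped, and that of Dusp2 to Dusp6 did not. In level, the groups did not overlap in 39.1% of all genes tested. The summed level of the 10 genes was 1280 and 1057 FPKM in WT, compared with 1176 and 1093 FPKM in KO, so the groups overlapped in the total.

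Across the 9 members tested, the groups did not overlap in 4 (1 higher and 3 lower in KO), a share of 44.4% beside 39.1% of all genes tested. With TPM scaling it was 3 (2 higher, Dusp1 and Dusp2, and 1 lower, Spry1), beside 39.5% of all genes tested, with 23.5% of all genes tested apart and higher. With median-ratio scaling 2 were higher and 2 lower, beside 38.9% of all genes tested apart in either direction. With quantile normalization 1 was higher and 2 lower, beside 39.8% of all genes tested. Dusp2 and Spry1 were apart under all 3 scalings tried, and Spry2, Dusp6 and Dusp1 under some of them. Over all genes tested, 18.5% were separate and higher in KO and 20.6% separate and lower. Negative log2 fold changes were found in 3 of the 9 and in 50.9% of all genes tested. The median log2 fold change was 0.09 over the members and -0.01 over all genes tested. In bulk samples, a lower value from fewer cells that express a gene and from less RNA per cell cannot be told apart.

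**Figure D2:**
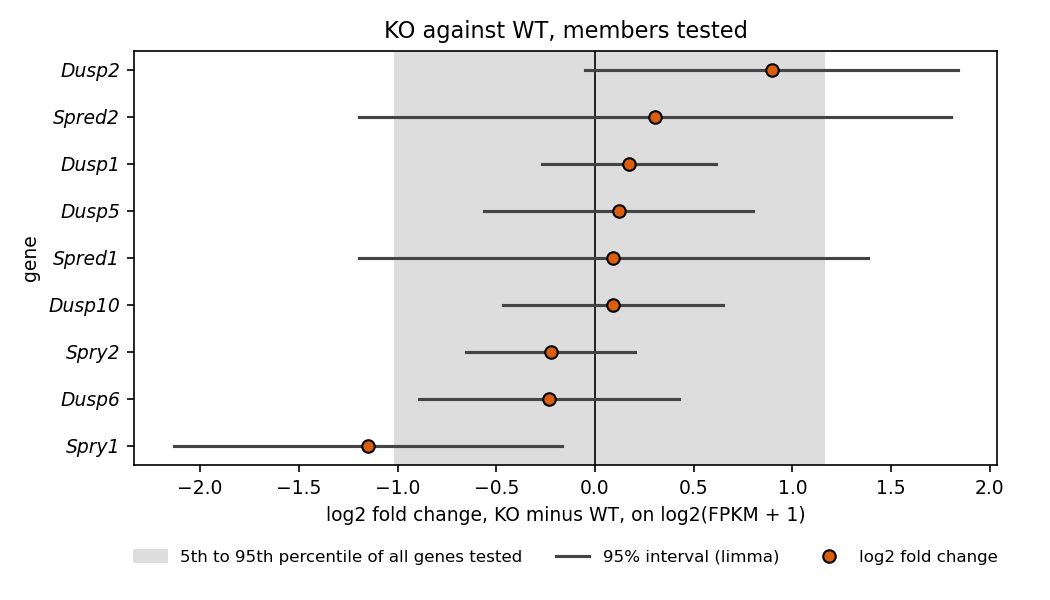
Log2 fold change of the 9 members tested, KO minus WT on the log2(FPKM + 1) scale, with 95% intervals from limma as lines; the grey band holds the 5th to 95th percentile of all genes tested. Spry1, at -1.15, is the 1 gene whose interval leaves out 0, without adjustment for the number of genes tested, and Dusp2 follows at 0.89 on the other side.

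**Figure D3:**
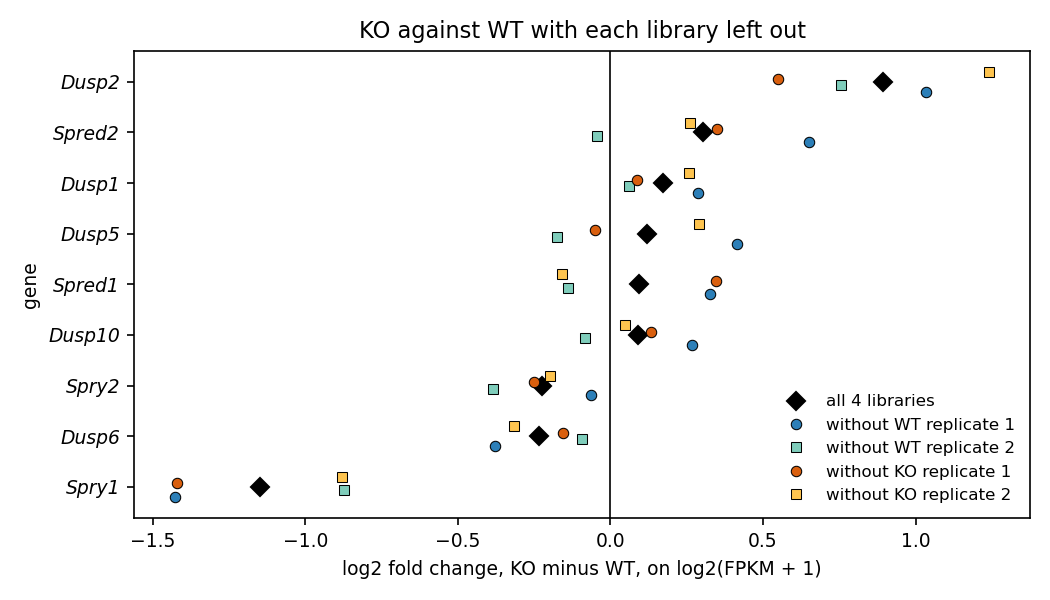
Log2 fold change of the same 9 genes with all 4 libraries (diamonds) and with each library left out in turn (circles and squares). In FPKM as deposited, Spry1, Dusp6 and Spry2 stay below 0 and Dusp2 and Dusp1 above it, while Dusp5, Dusp10, Spred1 and Spred2 cross 0 in at least 1 setting.

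The other genes of the pathway were read from lists chosen for their role. Of the other MAPK phosphatase and Sprouty family genes, 9 of 10 were in the table, 5 were tested and 0 were called in either direction by limma (1 with an unadjusted p under 0.05). The highest of them were Dusp3, a small phosphatase of ERK and JNK, with 10.5 and 3.14 FPKM in WT, compared with 11.3 and 10.6 FPKM in KO, and Dusp16, a phosphatase of JNK and p38, with 7.60 and 2.47 FPKM in WT, compared with 1.97 and 4.79 FPKM in KO. Dusp14, a small phosphatase known to dampen T cell receptor signalling, had WT values of 4.30 and 10.2 FPKM and KO values of 1.99 and 0.34 FPKM. It had the smallest p of that list, with a log2 fold change of -1.94 (SE 0.64; adjusted p = 0.380, limma), and its groups did not overlap. Spry4 was at 0.92 FPKM or less in every library, and Spry3 and Spred3 at 0.33 FPKM or less.

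Upstream, 0 of 26 tested genes of the RAS-RAF-MEK-ERK cascade were called in either direction by limma (2 with an unadjusted p under 0.05), with a median log2 fold change of 0.04. The highest 3 were the RAF kinase gene Araf (46.4 and 40.5 FPKM in WT, 43.0 and 37.6 in KO), the RAS-family activator Rasgrp2 (26.5 and 37.3 in WT, 55.8 and 29.9 in KO) and the adaptor Grb2 (37.99 and 26.4 in WT, 37.8 and 28.6 in KO). In each of these 3 the groups overlapped. Map2k1, which encodes the ERK kinase MEK1, had the smallest p of that list, at 29.6 and 33.6 FPKM in WT, compared with 16.8 and 15.2 FPKM in KO. Both KO libraries were the lower, with a log2 fold change of -0.94 (SE 0.33; adjusted p = 0.412, limma).

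Of the p38 and JNK cascade genes, 20 of 22 were tested and 0 were called by limma (2 with an unadjusted p under 0.05), with a median log2 fold change of -0.16. Gadd45b and Gadd45g, inducible activators of the kinase above p38 and JNK, were the most abundant, and their groups were apart in opposite directions in FPKM as deposited; with TPM scaling Gadd45b overlapped. Gadd45b had 1287 and 1264 FPKM in WT, compared with 1128 and 796 FPKM in KO (log2 fold change -0.43, SE 0.19; limma, adjusted p = 0.543). Gadd45g had WT values of 487 and 518 FPKM and KO values of 708 and 671 FPKM (log2 fold change 0.46, SE 0.17; limma, adjusted p = 0.453), the smallest p of that list. Map2k3, a kinase that activates p38, followed at 75.9 and 44.2 FPKM in WT, compared with 76.5 and 80.3 FPKM in KO.

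Among the ERK-responsive transcription genes, 18 of 20 were tested and 0 were called by limma (3 with an unadjusted p under 0.05), with a median log2 fold change of 0.23. The AP-1 gene Junb had 592 and 452 FPKM in WT, compared with 813 and 506 FPKM in KO, and Fosl2 had 267 and 234 FPKM in WT, compared with 275 and 231 FPKM in KO, both with overlap. Fos had WT values of 335 and 316 FPKM and KO values of 308 and 263 FPKM, with both KO libraries the lower, though not with TPM scaling (log2 fold change -0.19, SE 0.20; limma, adjusted p = 0.823). Egr1, an early-response transcription factor gene, had the smallest p of that list, with 59.7 and 46.2 FPKM in WT, compared with 103 and 163 FPKM in KO. The log2 fold change of Egr1 was 1.29 (SE 0.30; limma, adjusted p = 0.192). Beside it, the inducible phosphatase genes Dusp2, Dusp1, Dusp5 and Dusp6 had log2 fold changes of 0.89, 0.17, 0.12 and -0.23; the difference between the genes was not tested.

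**Figure D4:**
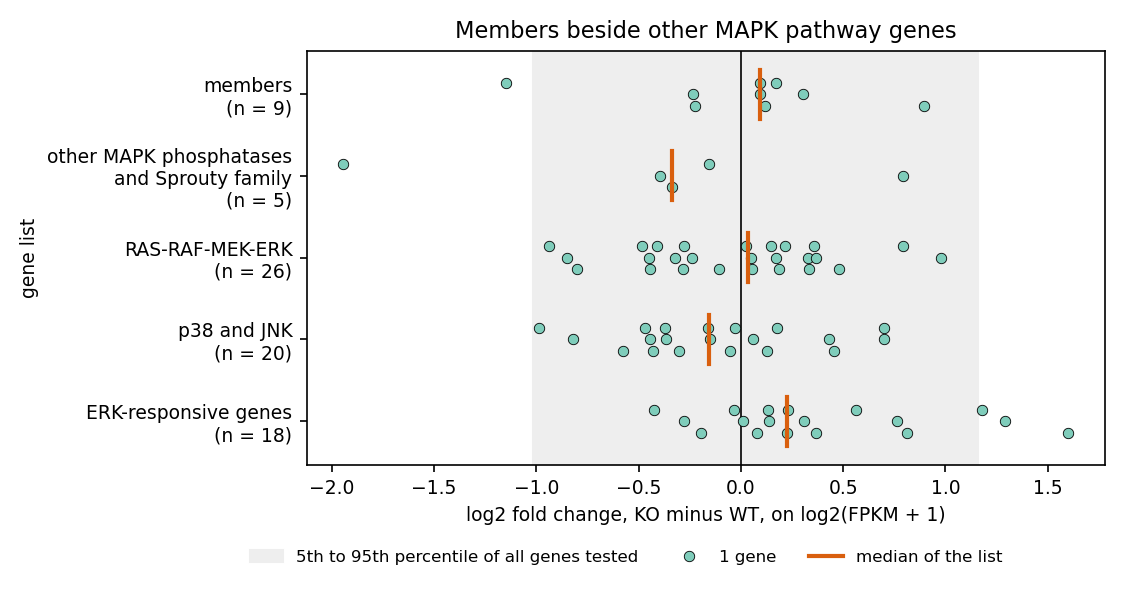
Log2 fold change, KO minus WT, of each tested gene in 5 lists (1 point per gene, shifted up or down only to keep points apart), with the median of each list as a vertical bar and the 5th to 95th percentile of all genes tested as the grey band. The medians lie between -0.34 and 0.23, and 0 genes in any of the 5 lists were called.

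The genes whose pattern over the 4 libraries was most like that of the 2 most abundant members were taken by the smallest root mean square distance between log2(FPKM + 1) values centred on each gene's own mean. For Spry2 these were Leng8 (distance 0.025; 19.2 and 15.8 FPKM in WT, 14.7 and 14.3 in KO) and Galc (0.026; 13.5 and 10.4 in WT, 10.5 and 10.2 in KO), out of 5720 candidates. For Dusp1 they were Lsm3 (0.022; 239 and 209.9 FPKM in WT, 271 and 245 in KO) and Nktr (0.026; 22.4 and 19.4 in WT, 24.7 and 21.3 in KO), out of 5882. With 4 libraries and so many candidates, close matches of this kind are a description only.

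All 10 genes chosen to mark ILC2s were at 51.8 FPKM or more in every library, with a summed level of 3982 to 4011 FPKM in WT and 3596 to 4175 FPKM in KO (0.372% to 0.444% of all FPKM over the 4 libraries). The 7 mast cell markers in the table summed to 1.59% and 1.23% of all FPKM in WT and to 2.60% and 4.09% in KO, so that both KO libraries were higher, KO replicate 2 most. In FPKM this was 15679 and 13208 in WT, compared with 24473 and 38570 FPKM in KO, above the summed ILC2 markers in every library. Of these, Tpsb2 and Mcpt4, which encode mast cell proteases, passed the test as higher in KO (limma, adjusted p = 0.0363 for each). Neither passed with a pseudocount of 0.1 or with quantile normalization, where 0 genes were called. Red blood cell markers summed to 5.40% and 7.87% in WT, compared with 7.18% and 2.83% in KO. Macrophage and dendritic cell markers (9 in the table) summed to 0.69 to 7.07 FPKM in WT and 2.32 to 13.6 FPKM in KO, with Csf1r at 0 in all 4 libraries. B cell markers (5 in the table) summed to 0.19 to 5.76 FPKM in WT and 10.4 to 20.3 FPKM in KO. NK cell markers (5 in the table) summed to 5.09 FPKM or less, neutrophil markers (4) to 0.85 FPKM or less, and T cell markers (6) to 231 to 269 FPKM in WT and 194 to 195 FPKM in KO, nearly all of it Cd3g. Adipocyte and stromal markers (10) summed to 161 and 19.3 FPKM in WT, compared with 25.4 and 31.1 FPKM in KO. Fabp4 was the main one except in WT replicate 2, where it was at 0.68 FPKM. Dcn had 14.7 and 9.24 FPKM in WT, compared with 0.03 and 1.60 FPKM in KO (log2 fold change -2.95; limma, adjusted p = 0.146). Col1a1 and Col3a1 were also lower in both KO libraries and Lep higher, all under 1 FPKM. The mast cell and B cell sums moved with genotype in the same direction as Dusp2 and opposite to Spry1. Cd3g, which made up nearly all of the T cell sum, and Dcn moved in the same direction as Spry1. Cd3e went the other way, with 1.53 and 0.24 FPKM in WT and 1.87 and 4.91 FPKM in KO. The remaining T cell markers, at 1.84 FPKM or less, overlapped between the groups. The part of these other cells in the member values was not tested.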

How the data were processed

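RNA was measured in 4 libraries, 2 WT and 2 KO, grouped by sample title. The authors deposited 1 table of FPKM values for 19088 genes; Bowtie2, RSEM and DESeq2 and the assembly GRCm38.p6 are named, per the submitters' processing notes, with roles and versions not given in the sources used here. RSEM is a tool that divides ambiguous fragments between similar sequences, and FPKM totals differ between libraries (smallest in KO replicate 1, largest in WT replicate 2), so abundant genes can shift the values of others. The table holds no counts; from the steps between low values, with 200 nt subtracted from the GENCODE transcript length, depth was estimated at 18700000 and 21900000 fragments in WT and 19900000 and 21500000 in KO, too roughly to recover whole fragments. Values of log2(FPKM + 1) were fitted with limma 3.58.1 in R 4.3.3 (trend and robust moderation, group term) over the 9818 genes whose mean reached 1 FPKM, with Benjamini-Hochberg adjustment and a threshold of 0.05. The code was tested on simulated data, with changes set larger than that of any member. How well it finds changes of the members' size was not tested. Coordinates are 1-based, from RefSeq on the same assembly. The members, lists and alternatives were chosen with earlier results of these data known. Every member is named, and from each list, the called genes or else the 3 most abundant tested genes and the 1 with the smallest p are named. Genes of like pattern were sought among tested genes averaging 5 FPKM or more and with an SD over the libraries of at least 0.8 times that of the member. The strand setting is not given, so antisense overlap cannot be separated. Same-numbered libraries did not deviate together (r = 0.03 over 9818 genes).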

Additional observations from a re-analysis of the deposited data

How the results depend on the processing

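No member passed under any of the 11 alternatives (limma; 0 calls in each), and neither did a gene of the other pathway lists. Over all genes, the 21 calls became 0 with a pseudocount of 0.1, without a filter on low values, with quantile normalization, with the replicate block (replicate number added as a term, though no label pairs the libraries) and with any 1 library left out (0 to 0), and 1 with median-ratio scaling; the cause was not tested. A filter of at least 5 FPKM in 2 libraries gave 20 and TPM scaling 23. TPM scaling, which raised the all-gene median by 0.11 on the log2 scale, turned the sign of 0 members but moved some by over 1.5 times: Dusp1 from 0.17 to 0.30, Dusp5 from 0.12 to 0.24, Dusp10 from 0.09 to 0.22, Dusp6 from -0.23 to -0.11, Spry2 from -0.22 to -0.10 and Spred1 from 0.09 to 0.18. It ended the separation of the groups in Spry2 and Dusp6 and separated them in Dusp1; median-ratio scaling did so for Dusp6 and Dusp1, and quantile normalization ended it for Spry2; these overlaps were computed after the values were seen. Signs turned in 6 of 97 combinations of member and alternative, all with a library left out, in 4 members: Dusp5 (range -0.17 to 0.41 over the libraries left out), Dusp10 (-0.083 to 0.27), Spred1 (-0.16 to 0.34) and Spred2 (-0.044 to 0.65). Of the members that kept their sign, Dusp1 ranged from 0.06 to 0.29, Dusp2 from 0.55 to 1.24, Spry2 from -0.38 to -0.07, Dusp6 from -0.38 to -0.09 and Spry1 from -1.43 to -0.87. The 7 separated neighbours in the order of levels stayed 7 with TPM or median-ratio scaling and were 6 to 7 with a library left out, alternatives added after the values were seen; quantile normalization gave no value for Dusp4, which is under the filter.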

Other observations

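Genes with a Dusp symbol that do not encode classical MAPK phosphatases were also present in the ILC2 libraries and belong to no list above; they were chosen after their values were seen. Dusp11, which encodes a phosphatase that acts on RNA, was the highest of them, with 20.5 and 24.97 FPKM in WT, compared with 23.5 and 28.0 FPKM in KO, and the groups overlapped. Dusp19 had 14.4 and 10.7 FPKM in WT, compared with 6.02 and 12.0 FPKM in KO, and Dusp12 7.03 and 10.7 FPKM in WT, compared with 14.9 and 5.45 FPKM in KO. In both, the KO libraries were further apart than the group means. Of the 22 genes with a Dusp symbol in the table, 14 had a mean of at least 1 FPKM.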
